A study of Caenorhabditis elegans with 43 samples.

Results

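Ribosome footprints of let-7(n2853) and wild type N2 worms were compared as the animals passed through the last larval stage, L4, toward adulthood. Of the 43 whole-worm libraries of the study, 12 entered the comparison, namely both strains at 26, 28, 30, 32, 34 and 36 h of development. For each gene the change from 26, 28 and 30 h to 32, 34 and 36 h in let-7(n2853) was set against the same change in N2. The study sampled synchronised Caenorhabditis elegans populations of 4 strains every 2 h, the remaining strains being lin-41(xe11) and a double mutant that carries xe11 together with n2853. All populations were grown at 25 °C. Strain let-7(n2853) has a mutated let-7 microRNA gene, and N2 carries neither allele. Ribosome profiling sequences the mRNA fragments covered by ribosomes, so its counts follow both mRNA abundance and translation, and the 2 cannot be told apart here.

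The microRNA let-7 appears late in larval life and represses lin-41, which encodes the TRIM-NHL RNA-binding protein LIN41. LIN41 in turn represses lin-29, mab-10, mab-3 and dmd-3, which encode transcription factors or their cofactors. LIN-29 and its cofactor MAB-10 drive the switch of the epidermis from larval to adult fate, when seam cells stop dividing and fuse and an adult cuticle is made. Each cuticle is built largely of collagens from a large gene family, whose members are used at different molts. The allele n2853 lowers let-7 function, and animals carrying it repeat larval epidermal fates and burst through the vulva at the molt to adulthood.

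Each strain had 1 library per hour, so the hours take the place of replicates; p-values reflect the scatter among hours, which may be technical, and not that among cultures. Per the labels' protocols, let-7(n2853) was made in a first time course with monosomes from sucrose gradients, and N2 in a second with monosomes from size-exclusion chromatography. Strain and time course therefore cannot be told apart, and the difference between the windows removes only an offset that is constant over the hours. Depth was 7638124 to 10328691 counts per library in N2 and 19495934 to 32261888 in let-7(n2853). Levels are in CPM, counts scaled to library size, 1 count standing for 0.10 to 0.135 CPM in N2 and 0.0318 to 0.0554 CPM in let-7(n2853). Markers of 9 tissues, from seam cells to sperm, were counted in both strains and both windows, and no marker was at 0 throughout a group. Matched to the interpolated N2 course over 9473 genes, the let-7(n2853) libraries at 26, 28 and 30 h correlated best with N2 at 25.5, 27.4 and 30.1 h. Those at 32, 34 and 36 h correlated best with N2 at 31.4, 33.1 and 35 h, which is 0.6, 0.9 and 1 h younger than labelled.

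Of 13208 genes tested, 5 differed between the strains in their change between the windows (0.0379%; edgeR quasi-likelihood test with a term for each hour, Benjamini-Hochberg adjusted p under 0.05). The adult cuticle collagen genes col-38 and col-49, together with dao-4 and F58E6.13, were lower in let-7(n2853), and the insulin-like gene ins-4 was higher. Without the hour term, none of the 13208 genes was called. With it, the unadjusted edgeR p was under 0.05 for 296 genes with higher and 379 with lower differences. That is about what the threshold gives when no gene differs. A wider set of genes, counted without a test, had hourly ratios of let-7(n2853) to N2 that did not overlap between the windows. These were 628 genes with all 3 later ratios below all 3 earlier ones (4.75%) and 1078 with all 3 above (8.16%). Under a random order of the hours, such a separation in either direction has a chance of 0.1, so many of these genes need not differ. The median difference over all genes tested was -0.0015 on the log2 scale.

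Most of the large rises between the windows were shared by the strains. Mean log2 levels were at least 4-fold higher at 32 to 36 h for 1239 genes in N2 and for 1126 in let-7(n2853), and 1103 of these were the same genes (89% of the N2 set and 98% of the let-7(n2853) set). Genes at least 4-fold lower in the later window numbered 36 in N2 and 5 in let-7(n2853), and the 5 were among the 36. Collagens shared a smaller part of their rises. Of 147 collagen genes tested, 33 were at least 4-fold higher later in N2 and 14 in let-7(n2853), 12 of them in common (36.4% and 85.7%). Another 6 collagens were at least 4-fold lower later in N2, against 0 in let-7(n2853). Over all genes, too, few of the N2 falls were shared (13.9%). All 52 sperm genes tested were at least 4-fold higher in N2 and 50 were so in let-7(n2853).

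**Figure D1:**
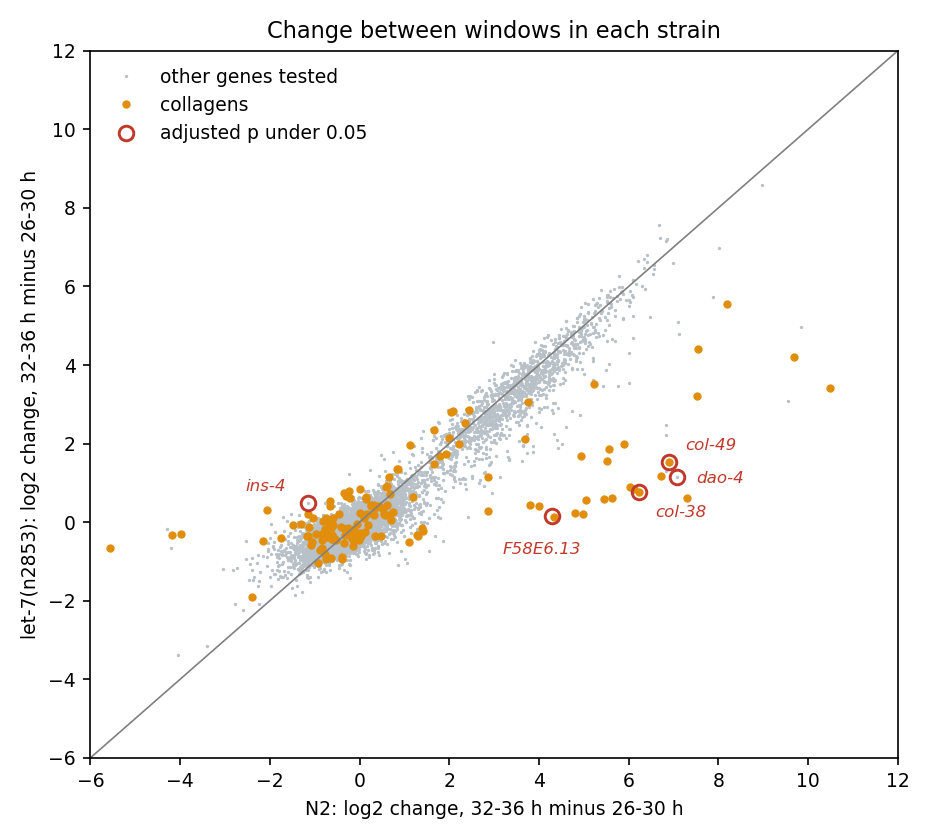
Change in mean log2(CPM + 0.25) from 26–30 h to 32–36 h for each gene tested, in N2 (horizontal axis) and let-7(n2853) (vertical axis). Grey points are genes, orange points are collagens, red rings mark the 5 called genes and the line marks equal change; many collagens with a high N2 value lie well below the line, and a few with a low N2 value lie above it.

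The largest called difference in a collagen was that of col-38 (II: 8568035 to 8569088, minus strand, WBcel235), which encodes a cuticle collagen of the adult epidermal list. In N2 its level was 35.8, 32.7 and 23.4 CPM at 26, 28 and 30 h and 676, 3965 and 4399 CPM at 32, 34 and 36 h. In let-7(n2853) it was 35.0, 64.8 and 16.5 CPM and then 12.2, 95.4 and 155 CPM. The strains overlapped in the earlier window, and every later let-7(n2853) value lay below every later N2 value, including that at 32 h. The difference between the strains' changes was -5.53 ± 0.40 on the log2 scale (approximate standard error, edgeR adjusted p = 0.00803), or 46.3-fold. The second collagen, col-49 (I: 3137185 to 3138447, plus strand), stood at 9.20, 10.6 and 2.57 and then 129, 1790 and 2127 CPM in N2. Its let-7(n2853) levels were 3.06, 9.53 and 1.87 and then 1.37, 23.4 and 42.6 CPM. Again the later levels of the strains did not overlap, and the lowest let-7(n2853) value was that of 32 h. The difference was -5.42 ± 0.39 (edgeR adjusted p = 0.00803).

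The other 2 genes with lower values had a like course. For dao-4 (X: 10075288 to 10076357, plus strand) the N2 levels were 0.88, 0.67 and 0.35 and then 16.7, 282 and 328 CPM. The let-7(n2853) levels of dao-4 were 0.55, 1.61 and 0.34 and then 0.22, 2.50 and 7.19 CPM. Its earlier values rest on few reads, 7, 5 and 3 in N2 at 26, 28 and 30 h and 12 in let-7(n2853) at 26 h. The difference for dao-4 was -6.47 ± 0.65 (edgeR adjusted p = 0.0433). F58E6.13 (V: 9745234 to 9749219, plus strand), a protein-coding gene with no symbol of its own, was named after its values were seen. In N2 it stood at 17.7, 18.1 and 10.2 and then 118, 474 and 465 CPM, and in let-7(n2853) at 11.2, 18.0 and 6.71 and then 3.88, 17.7 and 26.3 CPM. In let-7(n2853) the later values of F58E6.13 spanned its earlier ones, while in N2 the windows were far apart. Its difference was -4.23 ± 0.25 (edgeR adjusted p = 0.00526), the smallest p of the comparison.

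**Figure D2:**
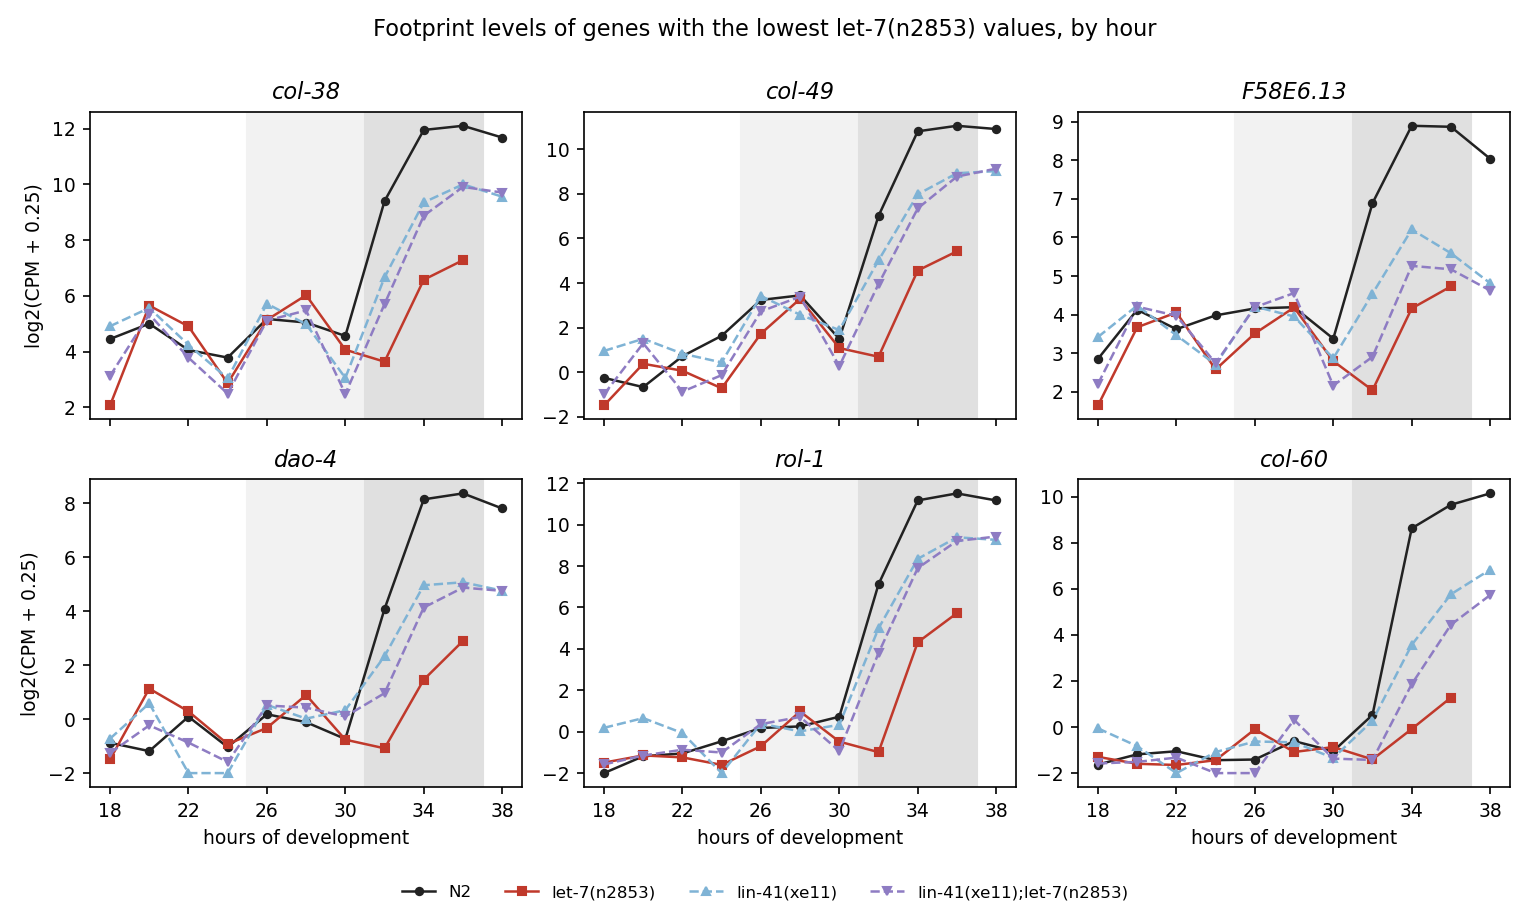
Footprint level, log2(CPM + 0.25), against hours of development for col-38, col-49, F58E6.13, dao-4, rol-1 and col-60 in the 4 strains, 1 point per library. The light band marks 26–30 h and the dark band 32–36 h; at 34 and 36 h N2 (black) is highest, let-7(n2853) (red) lowest and the lin-41(xe11) strains (dashed) lie between them.

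Calls for these 4 genes depended on the hours used. With the N2 course interpolated at the estimated ages (limma), all 4 were called, at -4.61 for col-38, -4.29 for col-49, -4.93 for dao-4 and -3.48 for F58E6.13. Against N2 sampled 2 h earlier, the values were -3.23, -2.28, -4.14 and -2.18 in the same order and none was called. At 36 h, col-38 in let-7(n2853) stood at 155 CPM, and in N2 at 32 h at 676 CPM. The part of developmental age in these differences was not tested. The col-38 call was lost without 26 h, that of col-49 without 30 h, and that of dao-4 without 26, 28 or 30 h. Over the fits without 1 hour the differences ran from -5.84 to -5.12 for col-38, from -5.92 to -5.04 for col-49 and from -7.06 to -5.73 for dao-4. F58E6.13 kept its call in each of these fits, with differences from -4.46 to -4.02.

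Further genes had low later values in let-7(n2853) without passing the test. The gene rol-1, named for the roller phenotype of its mutants, stood at 139, 2307 and 2918 CPM at 32, 34 and 36 h in N2 and at 0.25, 19.7 and 52.8 CPM in let-7(n2853). In the earlier window rol-1 was at or below 1.72 CPM in every library of both strains. Its difference was -6.35 ± 1.00 (edgeR adjusted p = 0.367). The collagen gene col-60 reached 1.19, 394 and 802 CPM in N2 and 0.13, 0.69 and 2.17 CPM in let-7(n2853), after levels of at most 0.68 CPM earlier. In N2, col-60 thus came up mainly after 32 h, and the difference of -9.29 ± 1.26 had an edgeR adjusted p of 0.232. For col-71 the later levels were 582, 4047 and 5024 CPM in N2 and 4.86, 93.9 and 280 CPM in let-7(n2853) (-4.31 ± 0.70, adjusted p = 0.376). The later levels of col-88 were 0.79, 437 and 1249 CPM in N2 and 0.16, 0.46 and 5.45 CPM in let-7(n2853) (-7.17 ± 1.31, adjusted p = 0.534). DESeq2 called rol-1 (adjusted p = 9.15e-06), col-60 (adjusted p = 0.00339) and col-71 (adjusted p = 3.08e-09). Without 32 h, edgeR called rol-1 (adjusted p = 0.0482), col-60 (adjusted p = 0.00617) and col-88 (adjusted p = 0.0389).

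In the list of adult epidermal genes, 7 of 8 were measured well enough to be tested and 2 were called, both lower. The list's ratios did not overlap for 5 of the 7 (71.4%, against 4.75% of all genes), again all lower. Its median difference was -5.27, beside -0.0015 for all genes, and its median change between the windows was 6.23 in N2 and 1.53 in let-7(n2853). Against N2 sampled 2 h earlier the median difference was -1.77. The list was chosen with earlier results of these data known and holds 2 of the called genes, so its values are no separate support. Adult collagen col-19, a standard marker of adult epidermis, averaged 1.29 and then 117 CPM in N2 and 3.99 and then 4.03 CPM in let-7(n2853) (-5.27 ± 1.68, adjusted p = 0.913). The blister genes bli-1 and bli-2 make the struts of the adult cuticle. Their differences were -2.17 ± 1.1 and -1.80 ± 0.56 (edgeR adjusted p = 0.913 each), that of bli-2 turning to 0.24 against N2 sampled 2 h earlier. Both rose between the windows in let-7(n2853) but stayed below N2, with later means of 118 and 254 CPM against 1469 and 1084 CPM in N2. In whole worms, fewer cells of a type and fewer footprints per cell cannot be told apart. The summed level of 5 seam cell markers at 32 to 36 h was 10.4 to 22.5 CPM in N2 and 17.8 to 33.1 CPM in let-7(n2853), ranges that overlap. The part of cell number in these differences was not tested.

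Collagens as a family did not move one way. Of 147 tested, 14 had lower non-overlapping ratios (9.52%) and 10 higher ones (6.8%), beside 4.75% and 8.16% of all genes. Their median difference was -0.16, a sign that turned in 3 of the 16 alternatives. The 14 lower collagens included col-120, col-139 and col-175, whose later means were 394, 353 and 1425 CPM in N2 and 1.00, 1.97 and 8.23 CPM in let-7(n2853); these 3 were named after their values were seen. Without 32 h, 15 genes of the collagen list were called lower and 2 higher among 29 genes called in all. The gene rol-1, also called lower in that fit, is not in the list and not among the 15. Each of the other 5 fits without 1 hour called 1 or 2 collagens, all lower. Reads of near-identical collagens may have been assigned to either copy, since the treatment of reads with several places was not given in the sources used here. The 6 furrow collagens, all dpy genes used at each molt, had a median difference of 0.01 and no non-overlapping ratio in either direction, but that median ranged from -0.21 to 1.31 over the alternatives. All 6 were above 0 against N2 sampled 2 h earlier (1.31), 2 h later (0.66) and at the estimated ages (0.23).

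A second group of genes was high in both strains at 26 to 30 h and had higher later values in let-7(n2853). None of its members passed the edgeR test with all hours, and they are given as values. The collagen gene col-90 (III: 7948838 to 7950068) stood at 2708, 3674 and 2053 and then 175, 154 and 187 CPM in N2. In let-7(n2853) col-90 stood at 1698, 4678 and 1839 and then 683, 2433 and 4616 CPM. All 3 later let-7(n2853) values of col-90 lay above the later N2 values, with the lowest at 32 h. The difference was 3.66 ± 0.65 (edgeR adjusted p = 0.513), and without 32 h it was 4.39 (adjusted p = 0.00999). DESeq2 called col-90 (3.65, adjusted p = 9.77e-07). The acyltransferase family gene oac-29 stood at 177, 205 and 56.6 and then 9.79, 7.53 and 3.22 CPM in N2. In let-7(n2853) it was 80.2, 208 and 44.4 and then 21.4, 139 and 169 CPM. The mutant's oac-29 level was thus low at 32 h and back in its earlier range at 34 and 36 h (4.11 ± 0.96, adjusted p = 0.913; 5.27 without 32 h, adjusted p = 0.0202).

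Other collagens had the same form, here named after their values were seen. Mean levels of col-41 went from 1826 to 56.5 CPM in N2 and from 1718 to 1177 CPM in let-7(n2853) (4.91 ± 1.32, adjusted p = 0.913; 6.30 without 32 h, adjusted p = 0.0389). For col-54 they went from 276 to 15.6 CPM in N2 and from 150 to 122 CPM in let-7(n2853) (3.74 ± 1.02, adjusted p = 0.913). The collagen gene col-17 averaged 2144 and then 675 CPM in N2 and 2382 and then 1961 CPM in let-7(n2853).

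A nuclear receptor gene and a homeobox gene had a like course. The nuclear receptor gene nhr-25, needed for molting and a candidate let-7 target, stood at 26.3, 36.4 and 21.8 and then 7.41, 5.82 and 6.33 CPM in N2. In let-7(n2853) nhr-25 was at 21.2, 41.5 and 26.9 and then 13.3, 16 and 23.4 CPM. The later values did not overlap between the strains, and the earlier ones did (1.30 ± 0.27, edgeR adjusted p = 0.776). The homeobox gene hmbx-1 stood at 29.1, 28.3 and 27.4 and then 11.2, 2.41 and 3.76 CPM in N2. In let-7(n2853) it was higher at every hour, at 52.2, 39.9 and 40.4 and then 33.7, 34.1 and 27.4 CPM (1.93 ± 0.44, adjusted p = 0.913). It was called by DESeq2 (2.02, adjusted p = 0.0205) and by edgeR without 32 h (2.61, adjusted p = 0.0286). Smaller differences were those of lin-12, which encodes a Notch receptor (0.60 ± 0.13), of the nuclear receptor gene nhr-85 (0.57 ± 0.12) and of lect-2 (0.52 ± 0.12). None of these 3 passed the test (adjusted p = 0.904 each), and against N2 sampled 2 h earlier they were at 0.07, 0.22 and 0.13.

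**Figure D3:**
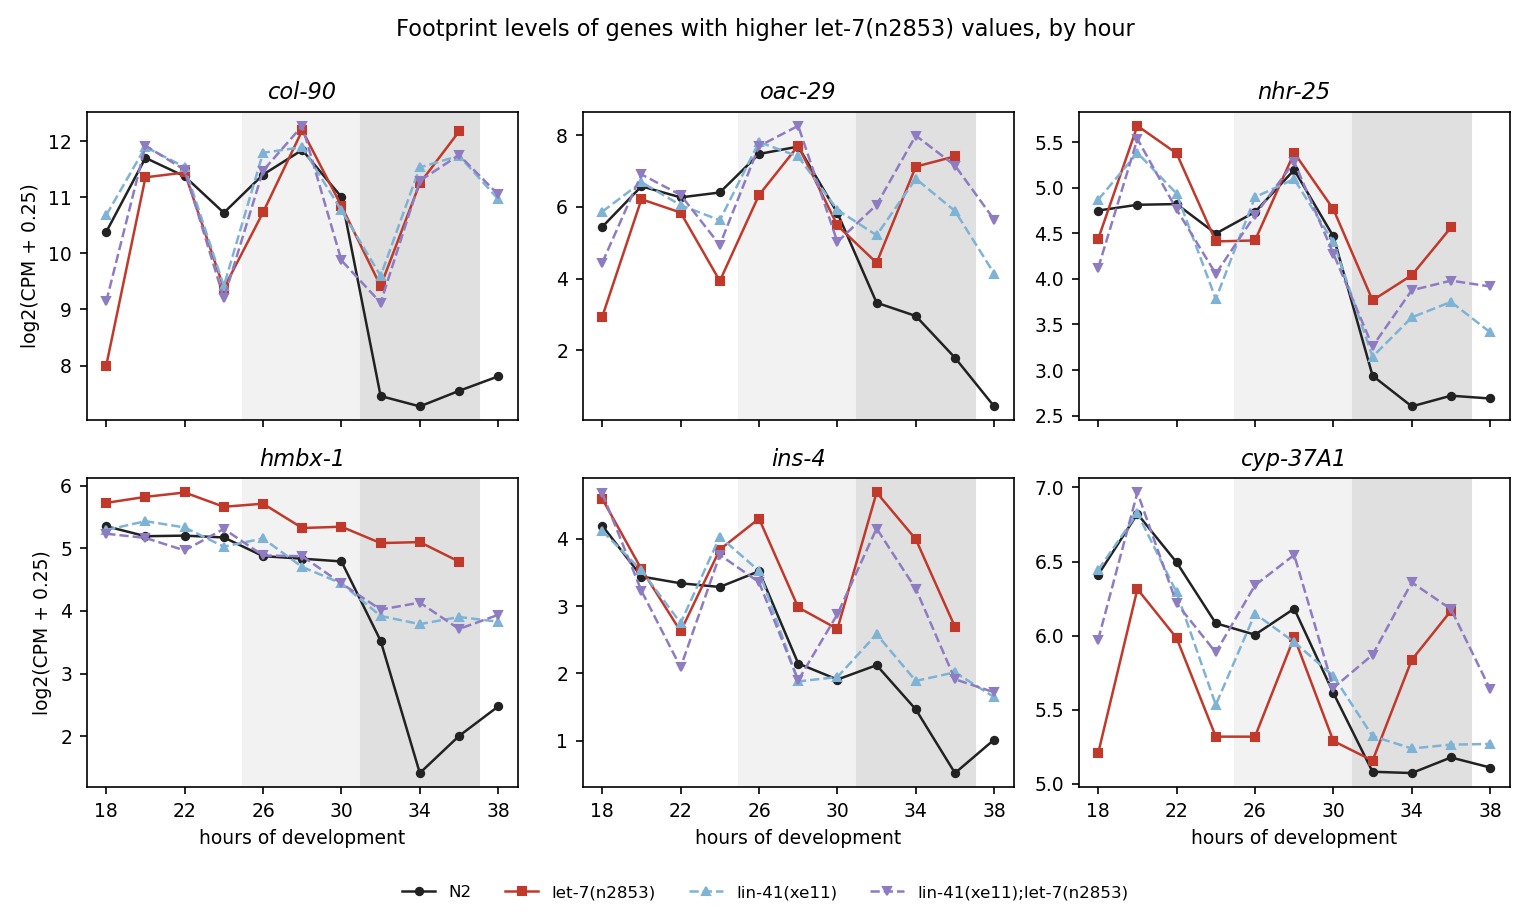
Footprint level, log2(CPM + 0.25), against hours of development for col-90, oac-29, nhr-25, hmbx-1, ins-4 and cyp-37A1 in the 4 strains, 1 point per library, with the light band at 26–30 h and the dark band at 32–36 h. N2 (black) drops in the dark band, where let-7(n2853) (red) lies above it for all 6 genes; ins-4 is the called gene among them.

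Among genes higher in let-7(n2853), ins-4 (II: 5996366 to 5997008, plus strand) passed the test. It encodes an insulin-like peptide, a class of secreted ligands of the DAF-2 receptor. In N2 its level was 11.2, 4.18 and 3.5 and then 4.10, 2.51 and 1.18 CPM. In let-7(n2853) it was 19.5, 7.65 and 6.07 and then 25.6, 15.7 and 6.21 CPM. The mutant was higher at every hour, and the gap widened from log2 ratios of 0.75 to 0.84 in the earlier window to 2.17 to 2.57 in the later. The difference of the changes was 1.72 ± 0.17 (edgeR adjusted p = 0.0433), or 3.30-fold. The call of ins-4 was lost in each of the 6 fits without 1 hour, with values from 1.65 to 1.78, and in the fit with N2 at the estimated ages (1.55, limma adjusted p = 0.354).

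Of 38 insulin-like genes, 18 could be tested, and 5 had higher non-overlapping ratios (27.8%, beside 8.16% of all genes) and 0 lower ones. The list's median difference was 0.18. Besides ins-4 they were ins-5, the neighbour of ins-4 on chromosome II (1.01 ± 0.40), ins-9 (0.81 ± 0.23), ins-18 (0.81 ± 0.36) and ins-33 (0.72 ± 0.23), none of them called (edgeR adjusted p = 0.913 each). The levels of ins-5 were 10.5, 5.66 and 5.61 and then 5.16, 2.61 and 1.18 CPM in N2. In let-7(n2853) they were 19.6, 9.20 and 3.86 and then 12.6, 8.97 and 2.96 CPM.

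The gene targeted by let-7, lin-41 (I: 9334800 to 9342496), was higher in let-7(n2853) at all 6 hours, so that its difference lay in both windows. Its N2 levels were 26.1, 7.41 and 6.54 and then 6.35, 10.6 and 19.1 CPM. In let-7(n2853) they were 70.8, 60.1 and 67.0 and then 60.2, 53.6 and 55.7 CPM. The strains did not overlap at any hour, N2 being lowest at 30 and 32 h and let-7(n2853) nearly level. The difference of the changes was -0.26 ± 0.59 (edgeR adjusted p = 0.981), the log2 ratio having been 1.43 at 26 h, 3.31 at 30 h and 1.53 at 36 h. The nuclear receptor gene daf-12, a candidate target in the same pathway, was also higher at all 6 hours. It stood at 25.3, 13.5 and 8.53 and then 12.4, 7.02 and 6.44 CPM in N2 and at 55.2, 42.3 and 47.2 and then 51.7, 37.8 and 30.8 CPM in let-7(n2853). The change itself differed by 0.49 ± 0.32 (adjusted p = 0.913). For hbl-1, a hunchback-like regulator of larval fates, mean levels were 5.08 and then 2.71 CPM in N2 and 11.1 and then 7.89 CPM in let-7(n2853) (0.39 ± 0.34, adjusted p = 0.946). Of the 10 candidate targets tested, none was called, 1 (nhr-25) had non-overlapping higher ratios (10%, near the 8.16% of all genes), and the median difference was 0.16.

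Of the LIN41 targets, 3 of 4 could be tested, and all 3 differences were below 0 without a call. The fourth, dmd-3, had 45 counts over the 12 libraries and at most 1.52 CPM. The levels of mab-3, a DM-domain transcription factor gene, were 0.88, 1.75 and 5.02 and then 8.07, 7.22 and 4.51 CPM in N2. In let-7(n2853) they were 0.82, 0.83 and 1.91 and then 0.86, 0.58 and 0.36 CPM. All 3 later mutant values of mab-3 lay below all 3 later N2 values, a difference of -2.49 ± 0.38 (edgeR adjusted p = 0.367). DESeq2 called it (adjusted p = 0.00454).

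The zinc-finger gene lin-29 stood at 7.06, 8.22 and 13.9 and then 19.6, 20.9 and 13.3 CPM in N2. In let-7(n2853) lin-29 stayed between 4.11 and 6.36 CPM at all 6 hours, below N2 at each of them. The strains were already apart at 26 h (log2 ratio -0.75) and most apart at 34 h (-1.75), and the changes differed by -0.70 ± 0.24 (adjusted p = 0.913). Its cofactor gene mab-10 averaged 4.42 and then 14.6 CPM in N2 and 1.59 and then 4.31 CPM in let-7(n2853) (-0.47 ± 0.48, adjusted p = 0.947). Leaving out 1 hour moved mab-10 between -1.13 and -0.00089, and against N2 sampled 2 h later it was 1.09. The median over the 3 targets was -0.70, and against N2 sampled 2 h later it was 0.14. Of the 15 heterochronic genes, which time larval cell fates, none was called and 4 had higher non-overlapping ratios (26.7%, beside 8.16% of all genes). These were lin-46 (0.96 ± 0.48), kin-20 (0.39 ± 0.12), puf-9 (0.24 ± 0.10) and sea-2 (0.22 ± 0.12). Against N2 sampled 2 h earlier they were at 0.01, 0.10, 0.02 and -0.05 in the same order. The later N2 levels of lin-46 rest on 12, 7 and 2 counts.

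**Figure D4:**
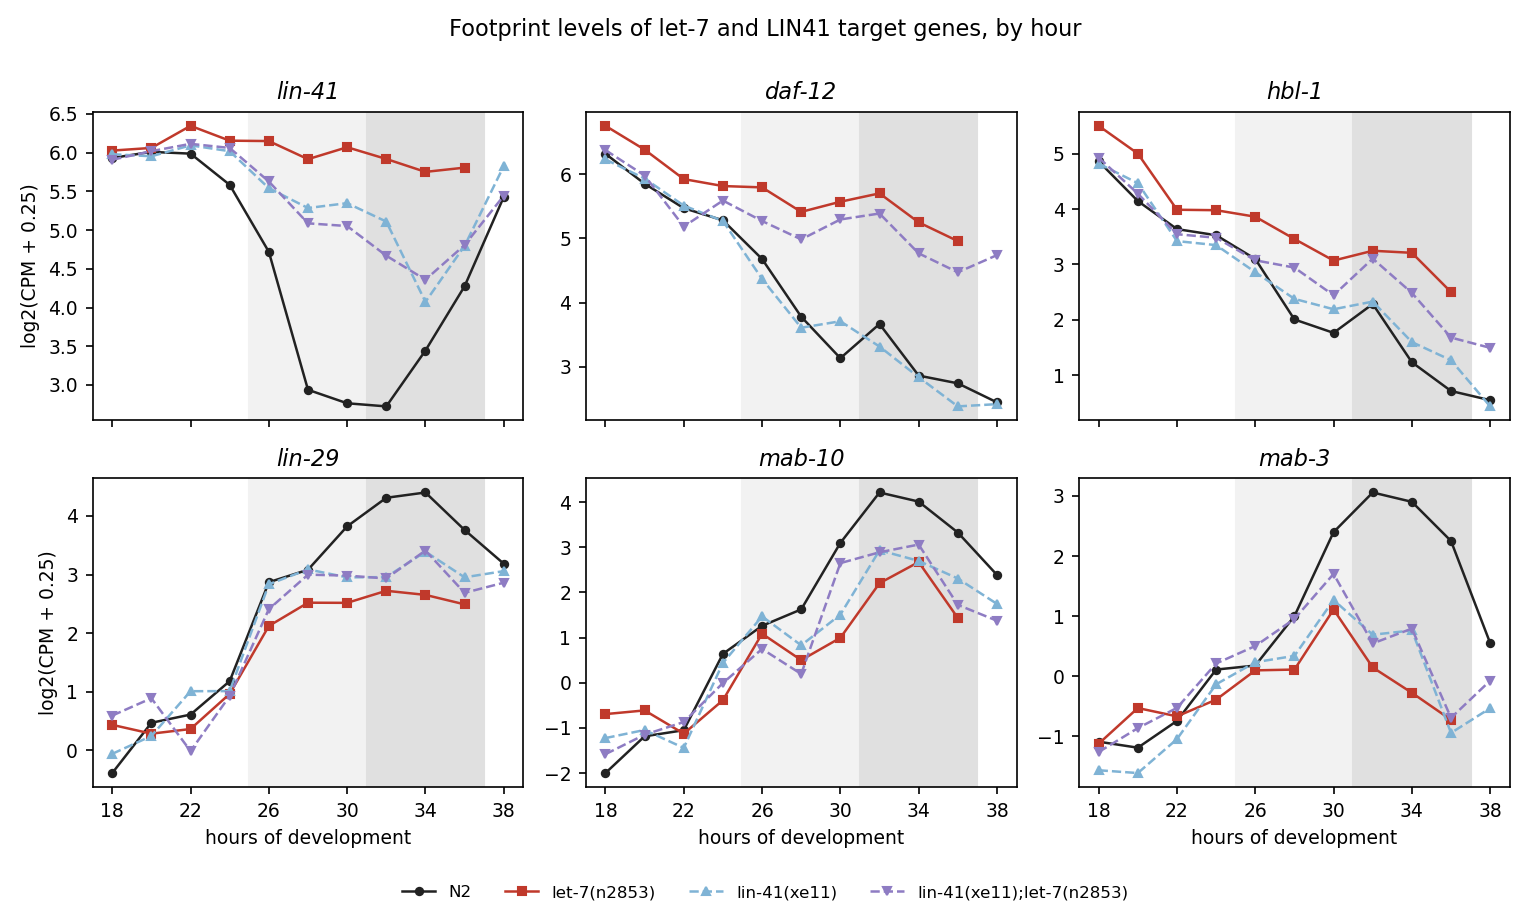
Footprint level, log2(CPM + 0.25), against hours of development for lin-41, daf-12, hbl-1, lin-29, mab-10 and mab-3 in the 4 strains, 1 point per library, with the light band at 26–30 h and the dark band at 32–36 h. In both bands lin-41 and daf-12 are higher and lin-29 lower in let-7(n2853) (red) than in N2 (black).

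Yolk protein genes, which the adult intestine expresses for the oocytes, differed widely between the strains at the last hours and did not pass the test. In N2, vit-2 stood at 0.25, 0.40 and 5.61 and then 27.9, 133 and 755 CPM. In let-7(n2853) vit-2 stood at 0.05, 0.11 and 0.21 and then 0.95, 2.42 and 2.33 CPM, below N2 at every hour. The difference was -2.61 ± 2.11 (edgeR adjusted p = 0.939). The later levels of vit-6 were 2.78, 80.7 and 1153 CPM in N2 and 0.29, 1.08 and 0.75 CPM in let-7(n2853) (-5.74 ± 3.76, adjusted p = 0.913). Leaving out 1 hour gave from -9.12 to -3.19 for vit-6 and from -4.55 to -1.46 for vit-2, each smallest without 36 h. The difference for vit-1 was 0.03 ± 0.45, its means being 8.96 and then 119 CPM in N2 and 3.23 and then 52.2 CPM in let-7(n2853). The vitellogenin genes vit-3, vit-4 and vit-5 did not pass the filter, which asks for at least 1 CPM in 3 of the 12 libraries. Their highest levels in any of these libraries were 19.3, 9.23 and 52.1 CPM. Without the filter, 5 of the 6 vitellogenin genes had differences below 0 and 1 above, with a median of -6.23. Over the 3 genes tested the median was -2.61. Reads may be shared among the near-identical copies.

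No gene of the oocyte, sperm and germline lists was called. All 8 oocyte and eggshell genes tested had differences below 0, with a median of -0.49, and 3 had lower non-overlapping ratios (37.5%, beside 4.75% of all genes), perm-2, perm-4 and oma-1. The 3 oocyte markers summed to 4.10 to 10.6 CPM in N2 and 4.23 to 5.26 CPM in let-7(n2853) at 32 to 36 h, ranges that overlap. The median change of the 52 sperm genes was 4.99 in N2 and 4.98 in let-7(n2853), and the median of their differences was -0.19. The sign of that sperm median turned in 6 of the 16 alternatives, with 0.69 on the deposited log2 values, 0.57 at the estimated ages, and -1.38 and 1.91 against N2 sampled 2 h earlier and 2 h later. The 3 sperm markers summed to 122 to 279 CPM in N2 and 91.2 to 236 CPM in let-7(n2853). Of 23 germline genes, 20 had differences below 0, with a median of -0.12. The count was 13 on the deposited log2 values and 12 with N2 at the estimated ages (median -0.0082). Non-overlapping ratios were lower for 3 germline genes (13%, beside 4.75% of all genes) and higher for 1 (4.35%, beside 8.16%).

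Hedgehog-related genes, which encode secreted proteins made by the epidermis around molts, had a median difference of -0.55 over 47 genes. Of these, 6 had lower non-overlapping ratios (12.8%, beside 4.75% of all genes) and 1 a higher one (2.13%, beside 8.16%). The warthog gene wrt-4 stood at 147, 173 and 50.8 and then 38.4, 658 and 730 CPM in N2. In let-7(n2853) it stood at 132, 202 and 41 and then 23.5, 158 and 186 CPM. The strains overlapped at 26 to 30 h, and the mutant was below N2 at each later hour, most so at 34 and 36 h (-1.59 ± 0.37, edgeR adjusted p = 0.913). For wrt-6 the later levels were 82.5, 429 and 448 CPM in N2 and 28.4, 155 and 186 CPM in let-7(n2853) (-1.23 ± 0.22, adjusted p = 0.513). DESeq2 called both wrt-4 (adjusted p = 0.0236) and wrt-6 (adjusted p = 0.00361), and edgeR without 32 h called wrt-4 (adjusted p = 0.0107). Against N2 sampled 2 h earlier, wrt-4 was at -0.15, wrt-6 at 0.16 and the median of the list at -0.15. Genes of the molting list had a median difference of -0.19 over 19 genes, with no call and no non-overlapping ratio. Of 11 vulval development genes, 2 had higher non-overlapping ratios, lin-12 and cog-1 (18.2%, beside 8.16% of all genes). The vulval median was 0.23, and 0.02 against N2 sampled 2 h earlier.

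Lists of general cell functions had medians near that of all genes. Cytosolic ribosomal protein genes had a median difference of -0.12, with 77 of 79 below 0 and 9 with lower non-overlapping ratios (11.4%, beside 4.75% of all genes). Mitochondrial ribosomal protein genes had a median of 0.10, with 62 of 65 above 0 and 24 with higher non-overlapping ratios (36.9%, beside 8.16% of all genes). No gene of either list was called. The first list's median turned to 0.0015 against N2 sampled 2 h later, and the second's kept its sign in all 16 alternatives, from 0.04 to 0.15. Of 167 nuclear hormone receptor genes, 17 had higher non-overlapping ratios (10.2%, near the 8.16% of all genes) and 4 lower ones (2.4%, beside 4.75%), with a median of 0.09. Respiratory chain, proteasome and muscle filament genes had medians of 0.04, -0.05 and 0.06, and no member of these lists had a non-overlapping ratio.

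**Figure D5:**
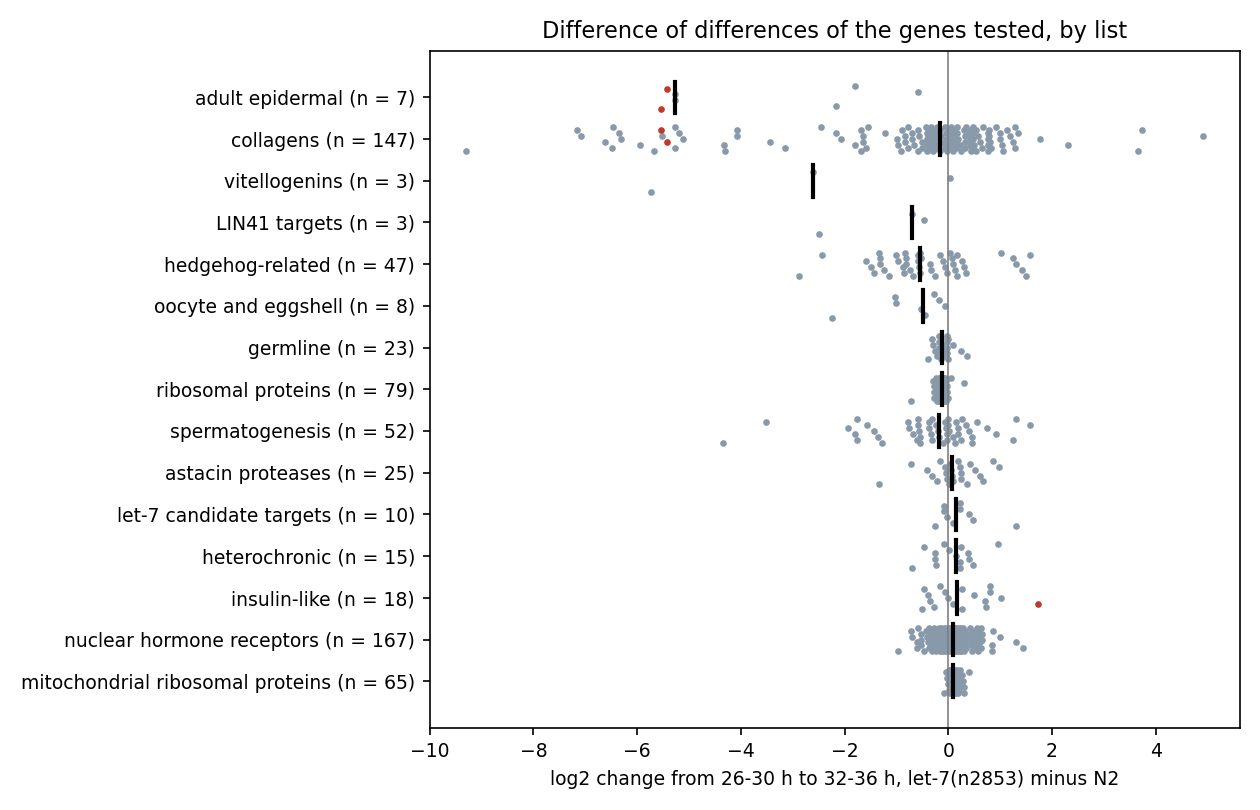
Difference between let-7(n2853) and N2 in the log2 change from 26–30 h to 32–36 h, 1 point per gene tested, by gene list. The lists were chosen with earlier results of these data known. Red points are the called genes and black bars the list medians; the adult epidermal median of -5.27 stands far below 0, and the medians of the housekeeping lists lie near 0.

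The other 2 strains were followed over the same hours and are set beside let-7(n2853) as values, since all 3 comparisons share the N2 libraries. Both belong to the second time course with N2, so let-7(n2853) differs from them in time course and purification as well as in alleles. The xe11 allele alters the let-7 sites of lin-41, and in the double mutant these sites meet the altered let-7. The difference in change from N2, from mean log2 levels, was -5.47 for col-38 in let-7(n2853), -2.14 in lin-41(xe11) and -2.42 with both alleles. At 36 h, col-38 stood at 1025 CPM in lin-41(xe11) and 962 CPM in the double mutant, between 4399 CPM in N2 and 155 CPM in let-7(n2853). For rol-1 the values were -6.46, -2.22 and -2.62 in the same order, and for dao-4 -5.93, -3.26 and -4.10. The values of F58E6.13 were -4.15, -2.53 and -3.49.

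Genes with high later values in let-7(n2853) are set out in the same way. The values of col-90 were 3.68, 3.46 and 3.51 for the strains in that order, and those of oac-29 were 4.12, 3.22 and 4.37. At 36 h col-90 was at 4616, 3417 and 3450 CPM in the 3 strains against 187 CPM in N2. For ins-4 the values were 1.63, 0.87 and 1.55, and for mab-3 -2.27, -1.99 and -2.38.

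A direct test of the change in let-7(n2853) against that in the double mutant called 0 of 13177 genes (0%, edgeR). The double mutant carries the same let-7 allele. At an unadjusted edgeR p under 0.05 there were 352 genes, fewer than that threshold gives when no gene differs. DESeq2 called 5 and limma 0. The values were -3.04 ± 0.36 for col-38 (edgeR adjusted p = 0.577), -2.96 ± 0.37 for col-49 (adjusted p = 0.577) and -2.66 ± 0.36 for col-88 (adjusted p = 0.664). For rol-1 the value was -3.80 ± 0.70 and for dao-4 -2.16 ± 0.52 (adjusted p = 1 each). Values near 0 were those of ins-4 (-0.0046 ± 0.33), col-90 (0.12 ± 0.39), mab-3 (-0.10 ± 0.38) and lin-29 (-0.04 ± 0.22). In this comparison, too, strain cannot be told apart from time course and purification. The estimated ages of the other strains lay from -0.4 to 0.8 h of the labelled hour, while those of let-7(n2853) at 32 to 36 h were 0.6 to 1 h younger, and the part of age in this comparison was not tested.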

How the data were processed

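The authors deposited a count table of ribosome footprints for 20182 genes in 43 libraries and a table of normalized log2 values. Reads were mapped with Bowtie, per the submitters' processing notes. The sources used here do not give its version, the genome build or the treatment of reads with several places. In the authors' log2 table each value was the log2 of a scaled count with 8 added, libraries being scaled to 26096086 in the first time course and 12019637 in the second. Symbols unique to 1 gene were joined for 18592 genes, and positions come from WBcel235.

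The deposited counts of 12 libraries were fitted with edgeR 4.0.16 in R 4.3.3 (quasi-likelihood, TMM factors, at least 1 CPM in 3 libraries), with terms for hour and strain. The tested term was strain by window, with 4 residual degrees of freedom. A gene was called when its p, adjusted by Benjamini-Hochberg, was below 0.05. CPM use TMM library sizes, and descriptive means use log2(CPM + 0.25). Errors are approximate standard errors, namely the size of the log2 difference divided by the square root of the test's F statistic. Hours are paired by their label: same-hour deviations of the strains correlated at 0.289 to 0.867, each best with its own hour. Alternatives used DESeq2 1.42.0, limma 3.58.1, other size factors and filters, left-out hours, shifted N2 hours and estimated ages.

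The windows, the 34 gene lists and the named genes were chosen with earlier results of these data known. Named were lin-41, the LIN41 target, candidate target and heterochronic lists, 12 genes per direction with non-overlapping ratios and a mean of at least 5 CPM, called genes first, and up to 4 per other list by p; other genes were named after their values were seen. On simulated counts for let-7(n2853) minus N2 (13113 genes, 200 changed), edgeR recovered 61.2% of log2 changes of 1, 95.5% of 2 and 97% of 4. Of its 195 calls there, 26 were false, a larger share than the threshold is meant to allow. In the data, the 4 genes called lower had differences beyond 4 in size. So did rol-1 (-6.35, edgeR adjusted p = 0.367) and col-60 (-9.29, edgeR adjusted p = 0.232), which were not called. The simulated recovery therefore does not give the power of the test on the real libraries. Errors reflect the scatter among hours, with 1 library per strain and hour. They cover neither separate cultures nor a difference in preparation shared by the libraries of 1 strain in 1 window.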

Additional observations from a re-analysis of the deposited data

Results flagged for a closer look

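For 5 genes the change between the windows differed between let-7(n2853) and N2 by the test of the difference itself (strain by window in edgeR, adjusted p under 0.05). The log2 differences were -5.53 for col-38, -5.42 for col-49, -6.47 for dao-4, -4.23 for F58E6.13 and 1.72 for ins-4. Strain cannot be told apart from the time course and its purification for any of them. The first 4 had overlapping levels in the strains at 26 to 30 h, and ins-4 was already higher in let-7(n2853) there.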

How the results depend on the processing

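For let-7(n2853) minus N2, 5 genes were called, and leaving out 1 hour in both strains gave from 2 to 29 calls. The 29 came without 32 h (8 higher, 21 lower), and 4 of the 5 genes were among them. Without the replicate block for hour, which pairs the libraries, the count was 0. DESeq2 gave 28 calls (all 5 genes included), a minimum of 5 CPM gave 3, and 26 and 28 h against 34 and 36 h gave 3, none of them among the 5. Against N2 sampled 2 h earlier or 2 h later the count was 0. RLE size factors and no filter gave 5 each, limma on the deposited log2 values gave 6, and N2 at the estimated ages gave 4. Against the double mutant DESeq2 gave 5 calls, and the other alternatives gave 0, as did edgeR. Over 153 named genes and 2422 values under alternatives, 35 lost and 20 gained a call, no called value changed sign, and 94 values uncalled in both settings did. The causes were not tested. Depth in N2 limits genes under about 1 CPM, such as dao-4 before 32 h.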
